A study of Sus scrofa with 11 samples.

Results

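The subject is the nutrient carriers of the cell membrane in cultured pig heart slices. These are the genes of the SLC1, SLC2, SLC3, SLC6, SLC7, SLC16, SLC27, SLC36, SLC38 and SLC43 families. They were picked by symbol, with earlier results of these data known. Symbols were looked up from the identifiers in the expression table, and 6633 of 16319 had none, so family members may be missing. The lookup found 54 carriers among the 16319 genes. Of these, 37 passed a filter of a mean of at least 1 FPKM (fragments scaled to transcript length and library size) over the 11 libraries. All libraries came from the hearts of wild-type Yorkshire pigs aged 3 months, and the study followed how gene expression in heart slices changes over days in culture. There were 3 libraries of slices on day 0, 2 on day 2, 3 on day 6 and 3 on day 10. The titles of the day 2, day 6 and day 10 groups carry the word Stim, which the labels do not explain. The labels do not say whether replicates came from separate animals, so p-values measure only the spread between these samples, which may be technical.

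Solute carriers are the membrane proteins through which cells take up and release small nutrients. Heart muscle takes up glucose, lactate, amino acids and creatine through them. The insulin-responsive glucose carrier GLUT4 (SLC2A4) and the creatine carrier SLC6A8 are typical of striated muscle. Amino acid uptake relies on exchangers that swap one amino acid for another, several of which need the heavy chain SLC3A2 (CD98) to reach the surface, and on sodium-coupled carriers that load the cell. Not every family member sits in the plasma membrane: SLC38A9 is known from lysosomes, SLC2A8 from intracellular membranes and SLC6A17 from synaptic vesicles.

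The libraries held 11710088 to 16784719 reads each, as recovered from the FPKM values. Day 0 replicate 2 and day 2 replicate 1 stood apart, with 4536 and 4017 genes at 0 FPKM against 1310 to 2331 in the other 9, and with 21 and 14 of the 54 carriers at 0 against 1 to 8. The heart label was checked on the day 0 libraries, in which the 8 cardiomyocyte markers in the table (ACTC1, ACTN2, MYBPC3, MYH6, MYL3, RYR2, TNNC1 and TNNT2) summed to 72830 to 159100 FPKM. The highest sum was that of day 0 replicate 2, mostly TNNC1 (78130 FPKM) and MYL3 (57730). ACTC1, ACTN2, MYBPC3, MYH6 and RYR2 were lower there than in replicates 1 and 3, with RYR2 at 1.02 against 102 and 99.9. The sum of the 8 markers was 2420 to 15900 on day 2, 13040 to 29220 on day 6 and 22.2 to 143.9 on day 10, and none of them was at 0 in any library. In bulk RNA, fewer cells of a type and less RNA per cell cannot be told apart. The 6 fibroblast markers summed to 366 to 1966 FPKM on day 0, 404 to 415 on day 2, 302 to 615 on day 6 and 1737 to 8267 on day 10. The sum of 7 smooth muscle and pericyte markers was 295 to 459 on day 0, 164 to 463 on day 2, 99.5 to 205 on day 6 and 2289 to 3147 on day 10. Most of the day 10 sum was TAGLN (1946, 2395 and 1971 FPKM). KCNJ8 went the other way, with 5, 3.37 and 7.05 FPKM on day 10 against 75.2, 43.5 and 117 on day 0. By limma (adjusted p under 0.05), 1 of these 7 genes was higher and 1 lower on day 10 than on day 0. Of all genes tested, 11.9% were higher and 6.23% lower. Endothelial markers, 7 genes, summed to 157 to 616 on day 0, 905 to 2378 on day 2, 934 to 2248 on day 6 and 329 to 1085 on day 10. PECAM1 alone had 448 and 1709 FPKM on day 2, while TEK, with 4.22 and 23.2, overlapped day 0. Against day 0, 2 of the 7 were called higher on day 2, 2 on day 6 and 0 on day 10. The 7 leukocyte markers summed to 196 to 685 on day 0, 95.6 to 556 on day 2, 136 to 302 on day 6 and 23.9 to 499 on day 10. The part of these shifts in cell types in the carrier results was not tested.

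**Figure D1:**
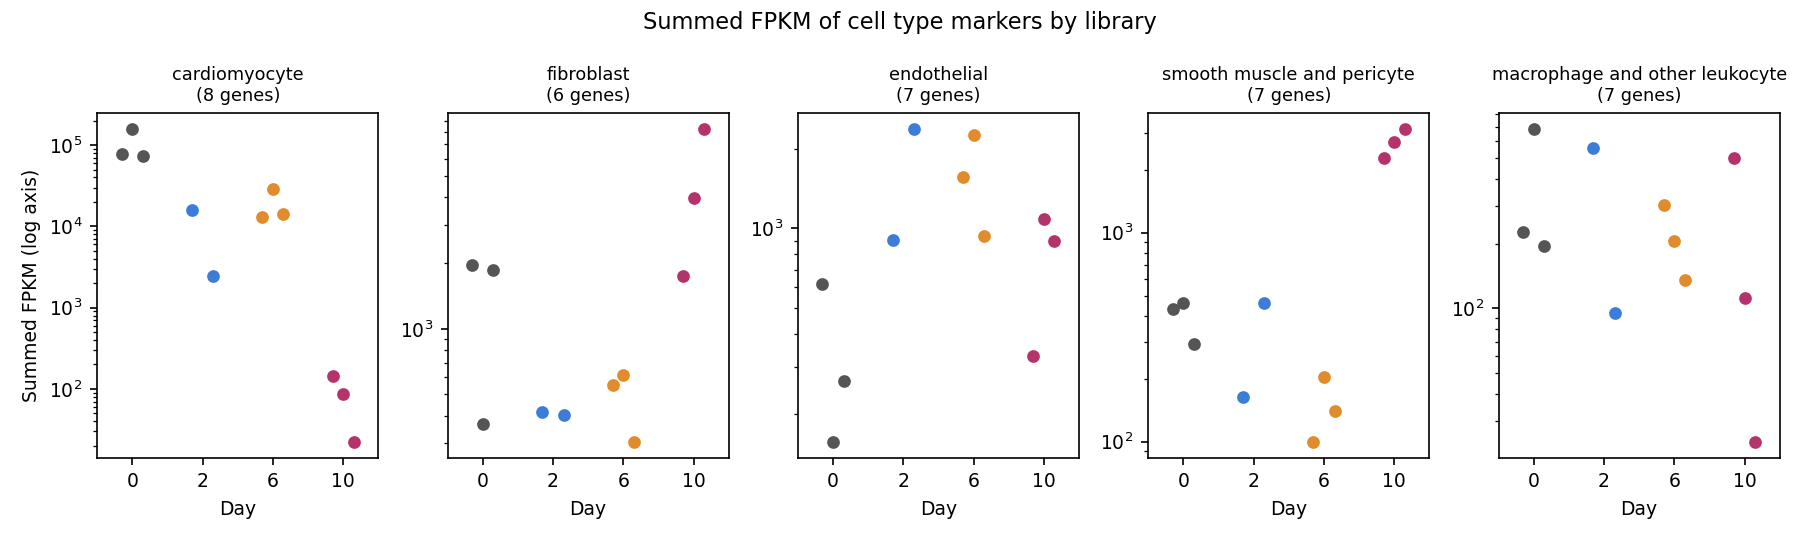
Summed FPKM (vertical log axis) of the markers of 5 cell types against the day in culture (horizontal axis), 1 point per library. The cardiomyocyte sum lies between 22.2 and 143.9 FPKM in the 3 day 10 libraries and between 72830 and 159100 in the 3 day 0 libraries. The highest of these, day 0 replicate 2, is mostly TNNC1 and MYL3. The smooth muscle and pericyte sum on day 10, most of it from TAGLN, lies above that of all other libraries. The fibroblast sum on day 10 overlaps that of day 0.

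Against day 0, more carriers rose than fell with the values as deposited, while limma voom on the recovered reads had 6 higher and 7 lower on day 10. On day 2, 8 of the 37 tested carriers were higher and 2 were lower than on day 0, while 5.76% and 3.14% of all 12625 genes tested were called higher and lower (limma on log2(FPKM + 1), adjusted p under 0.05). On day 6, 13 were higher and 1 was lower, beside 9.55% and 1.76% of all genes. By day 10 the numbers were 9 higher and 4 lower, beside 11.9% and 6.23%. The median log2 fold change of the 37 carriers was 1.03 on day 2, 1.36 on day 6 and 1.07 on day 10, beside 0.51, 0.88 and 0.51 for all genes tested. The 3 comparisons share the day 0 libraries. Libraries that did not overlap those of day 0 were found for 19 carriers above and 5 below on day 2 (26.7% and 9.18% of all genes), for 25 and 3 on day 6 (38.8% and 6.76%) and for 18 and 4 on day 10 (25.1% and 9.28%). The endothelial marker sum was also above that of day 0 in all libraries of day 2 and day 6, and its part in these results was not tested. In all, 18 carriers were called in at least 1 comparison.

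Between day 6 and day 2, 0 of the 37 carriers and 0.0% of all genes passed in either direction with limma, and 0 with limma voom. The libraries of day 6 lay above those of day 2 without overlap for 9 carriers and below for 3, beside 16.0% and 5.77% of all genes. Unadjusted p was under 0.05 for 3 of the 37 carriers and for 511 of the 12625 genes. From day 6 to day 10, SLC16A3 was higher and SLC6A8 and SLC43A2 were lower on day 10, beside 1.91% of all genes called higher and 2.99% called lower. The day 10 libraries lay above those of day 6 without overlap for 2 carriers and below for 12, beside 10.4% and 27.3% of all genes.

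The direction split depended on how the libraries were scaled. Median ratio scaling puts the median log2 fold change of all genes at 0.004 on day 2, 0.12 on day 6 and 0.08 on day 10. Under it, 337 genes were higher and 815 lower on day 2, in place of 727 and 397, and 269 were higher and 595 lower on day 6, in place of 1206 and 222. On day 10 the split was 911 and 1244 genes in place of 1508 and 787, and for day 10 against day 6 it was 302 and 284 in place of 241 and 378. Quantile normalization gave 707 higher and 1018 lower genes on day 2, 676 and 934 on day 6, 1356 and 1427 on day 10, and 625 and 505 for day 10 against day 6. With median ratio scaling the carriers split into 7 higher and 4 lower on day 2, 4 and 3 on day 6, 7 and 6 on day 10, and 1 and 2 for day 10 against day 6. No called carrier changed direction under any alternative that was run, but 30 of the 40 calls ended under at least 1 of them. The endings given with each group are not the full set. Without day 0 replicate 2 and day 2 replicate 1 together, the calls of SLC7A8 on day 2 (log2 1.29) and of SLC36A4 on day 6 (1.33) and day 10 (1.17) ended.

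**Figure D2:**
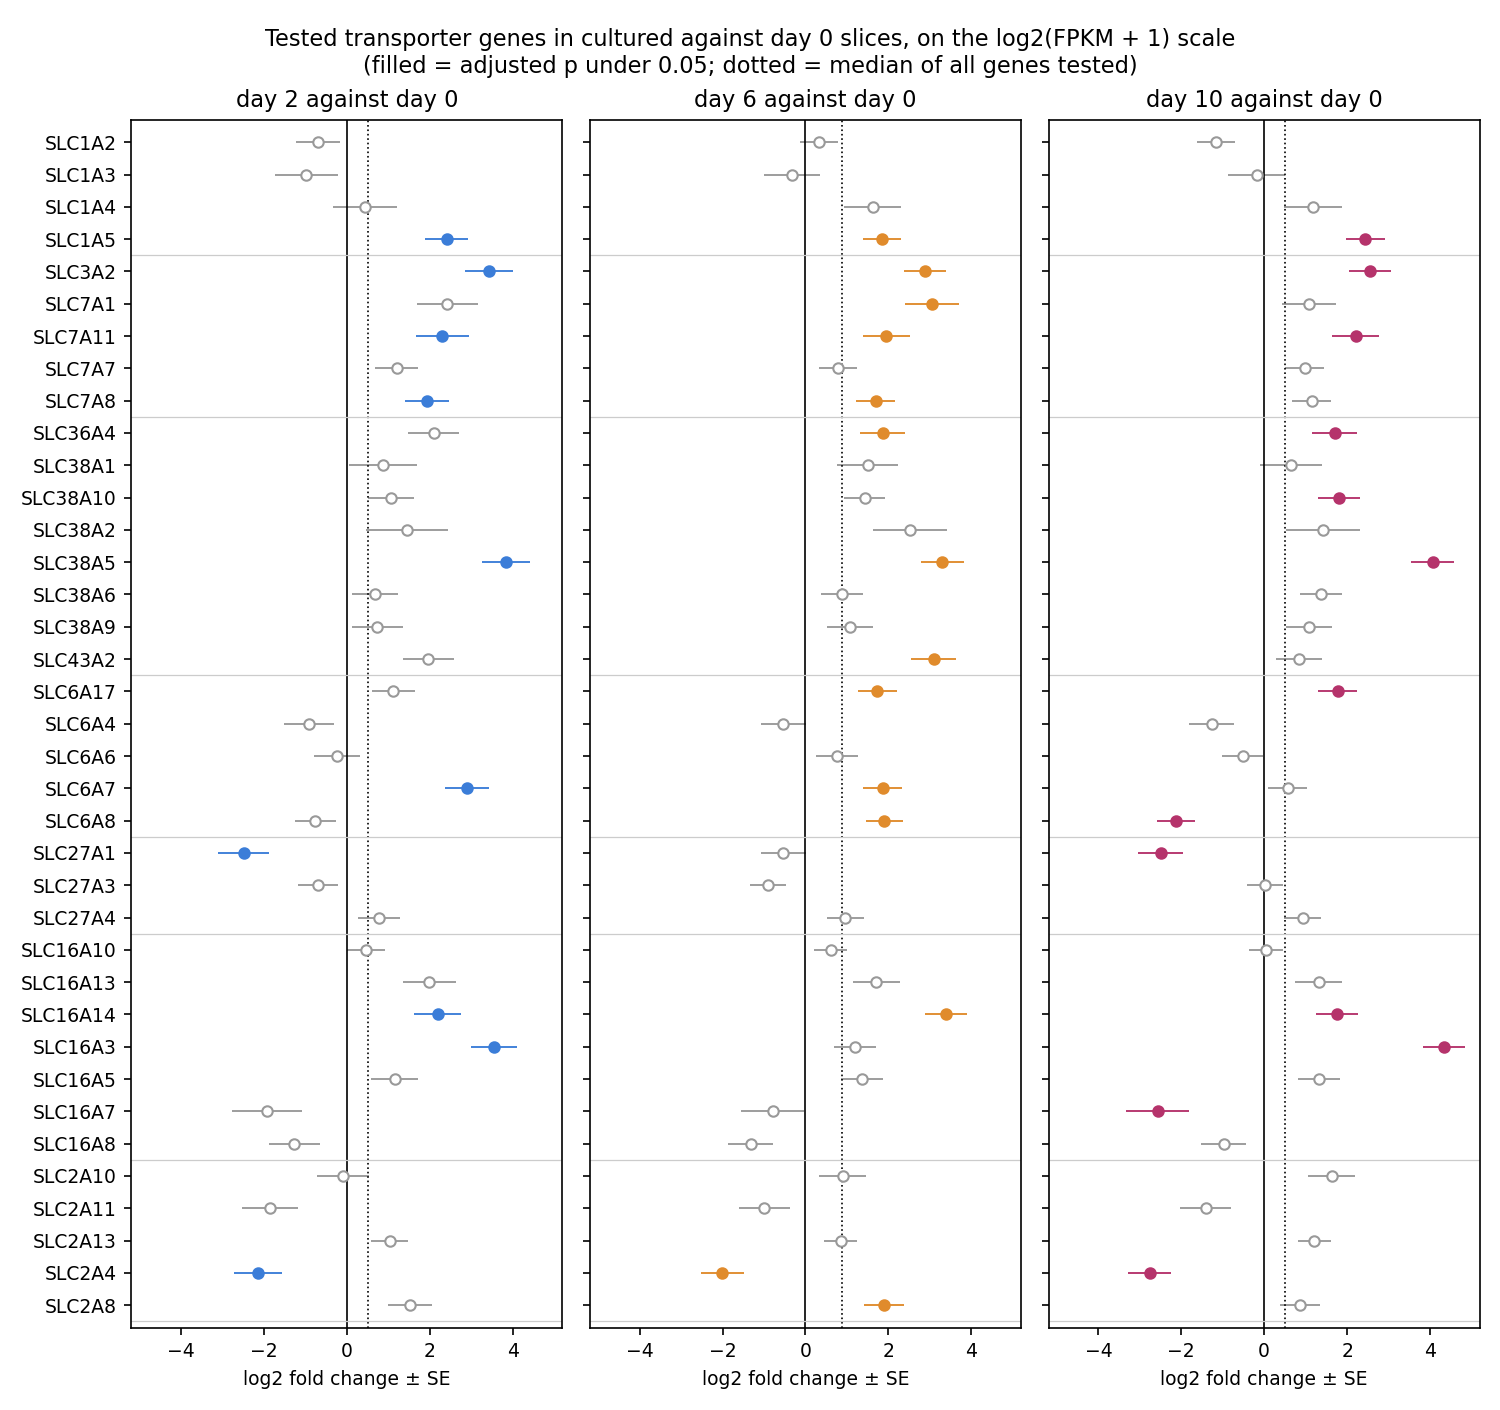
Log2 fold change with its standard error (horizontal axis, log2(FPKM + 1) scale) of the 37 tested carriers (rows, grouped by family) on day 2, day 6 and day 10 against day 0. Filled points have a limma adjusted p under 0.05, and the dotted line is the median of all genes tested, at 0.51, 0.88 and 0.51. Filled points right of 0 number 8, 13 and 9, and filled points left of 0 number 2, 1 and 4.

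The counts by family that follow rest on few genes each. They stand beside 5.76%, 9.55% and 11.9% of all genes called higher on day 2, day 6 and day 10. The shares called lower were 3.14%, 1.76% and 6.23%. Among the heavy chain and the SLC7 light chains, 3 of 5 tested genes rose by day 2, 4 by day 6 and 2 by day 10. SLC3A2 had 24.5, 26.1 and 11.8 FPKM on day 0, 382 and 129 on day 2, 224, 119.5 and 128 on day 6, and 124, 91.7 and 154 on day 10. All 8 cultured libraries lay above the 3 day 0 libraries. Its log2 fold change against day 0 was 3.43 ± 0.57 on day 2, 2.88 ± 0.51 on day 6 and 2.56 ± 0.51 on day 10 (SE, limma adjusted p 0.0041, 0.0085 and 0.00434). With median ratio scaling the changes were 2.65, 1.74 and 1.84 with adjusted p of 0.0637, 0.166 and 0.11, and with limma voom on the recovered reads the adjusted p was 0.0551, 0.145 and 0.0828, so that all 3 calls ended. They also ended without day 2 replicate 1 for day 2 (2.65, adjusted p 0.057) and without day 6 replicate 1 for day 6 (2.59, adjusted p 0.065).

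SLC7A11 (xCT) is the light chain of an exchanger that imports cystine in exchange for glutamate. It had 0.1, 0 and 0.936 FPKM on day 0, 2.32 and 11.2 on day 2, 4.08, 4.48 and 3.45 on day 6, and 8.03, 4.89 and 2.92 on day 10. Its libraries at each cultured day lay above those of day 0, where 12 reads supported it. The log2 fold change was 2.30 ± 0.64, 1.95 ± 0.57 and 2.20 ± 0.57 on day 2, day 6 and day 10 (SE, limma adjusted p 0.0403, 0.0452 and 0.018). SLC7A8 (LAT2), an exchanger of neutral amino acids, had 0.714, 0 and 0.577 FPKM on day 0, 6.08 and 3.01 on day 2, 3.95, 3.38 and 3.22 on day 6, and 3.31, 2.3 and 1.05 on day 10. It rose on day 2 by 1.94 ± 0.52 and on day 6 by 1.69 ± 0.47 on the log2 scale (SE, limma adjusted p 0.0374 and 0.0384), and its day 10 change of 1.14 had an adjusted p of 0.108.

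SLC7A1 (CAT1) carries arginine and lysine and works without the heavy chain. Its FPKM was 2.47, 0.106 and 1.59 on day 0, 6.34 and 17.2 on day 2, 17.9, 18.3 and 14.7 on day 6, and 1.12, 3.53 and 8.63 on day 10. The day 6 libraries were all above those of day 0, and the day 10 libraries overlapped them. The log2 fold change was 3.06 ± 0.65 on day 6 (SE, limma adjusted p 0.0163), beside 2.43 on day 2 with an adjusted p of 0.0558 and 1.07 on day 10 with an adjusted p of 0.279. SLC7A7, another heavy chain partner, had means of 2.98 ± 1.26 FPKM on day 0, 8.02 ± 2.25 on day 2, 5.69 ± 0.97 on day 6 and 6.65 ± 1.27 on day 10 (SD, n = 3, 2, 3 and 3) and did not pass at any day (smallest adjusted p 0.163).

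The day 6 call of SLC7A1 ended without day 6 replicate 1 or 3 (adjusted p 0.0521 to 0.0886). Those of SLC7A11 ended without any one of 7 libraries for day 2 (all but day 0 replicate 2, day 2 replicate 1, day 10 replicates 1 and 3, adjusted p 0.0522 to 0.316, log2 1.37 to 2.60), without any one of the 9 libraries of day 0, day 6 and day 10 for day 6 (0.0508 to 0.16) and without day 0 replicate 1 or day 10 replicate 1 or 2 for day 10 (0.0555 to 0.0709). Those of SLC7A8 ended for day 2 without any one of day 0 replicates 1 and 3, the day 2 and day 6 libraries and day 10 replicate 2 (0.0558 to 0.164), and for day 6 without any one of the day 0 and day 6 libraries and day 10 replicate 2 (0.0515 to 0.157). Under median ratio scaling the day 6 call of SLC7A11 (1.56, adjusted p 0.0842) and the calls of SLC7A8 on day 2 (1.84, adjusted p 0.0533) and day 6 (1.31, adjusted p 0.121) ended as well. Voom ended the same 3 calls (adjusted p 0.0886, 0.067 and 0.12). Quantile normalization ended the day 6 calls of SLC7A11 and SLC7A8 (adjusted p 0.0763 and 0.154).

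Of the 4 tested SLC1 carriers, SLC1A5 rose at all 3 days and the others passed at none. SLC1A5 (ASCT2) exchanges glutamine and other small neutral amino acids. It had 17.4, 14.7 and 11 FPKM on day 0, 76.7 and 81.9 on day 2, 59.2, 67.8 and 37.9 on day 6, and 49.6, 76.9 and 140.5 on day 10. Every cultured library was above every day 0 library. The log2 fold change was 2.41 ± 0.52 on day 2, 1.84 ± 0.46 on day 6 and 2.44 ± 0.46 on day 10 (SE, limma adjusted p 0.0137, 0.0275 and 0.00301). Median ratio scaling gave 1.64, 0.731 and 1.73 (adjusted p 0.142, 0.448 and 0.0591) and voom gave 1.76, 0.842 and 1.84 (0.123, 0.411 and 0.0533), which ended the 3 calls. The day 2 call also ended without either day 2 library (0.0802 and 0.0866), and the day 6 call without day 0 replicate 3 or any 1 day 6 library (0.0597 to 0.127). Its relative SLC1A4 (ASCT1) had 0.809 ± 0.959 FPKM on day 0, 2.02 ± 2.86 on day 2, 4.13 ± 1.007 on day 6 and 3.42 ± 2.89 on day 10 (SD, n = 3, 2, 3 and 3; adjusted p 0.755, 0.121 and 0.263 against day 0). The glutamate carrier SLC1A3 had 3.61 ± 3.3, 0.811 ± 0.692, 1.74 ± 0.155 and 2.32 ± 1.87 FPKM over the same days (adjusted p 0.455, 0.738 and 0.882), and SLC1A2 reached at most 3.87 FPKM in a library.

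In the SLC38, SLC36 and SLC43 families, 1 of 8 tested carriers rose by day 2, 3 by day 6 and 3 by day 10. SLC38A5 (SNAT5), which carries glutamine, serine and glycine with sodium, passed on all 3 days. Its FPKM was 2.13, 1.99 and 1.29 on day 0, 56.6 and 26.8 on day 2, 39.5, 24.3 and 19 on day 6, and 36.4, 30.7 and 84.4 on day 10. The lowest cultured library was thus far above the highest day 0 library. It rose by 3.85 ± 0.58, 3.30 ± 0.52 and 4.07 ± 0.52 on the log2 scale on day 2, day 6 and day 10 (SE, limma adjusted p 0.00258, 0.00436 and 1.87e-04). The day 2 call ended with the 2 compared groups alone in the fit (adjusted p 0.072), and those of day 6 and day 10 held under all 22 alternatives.

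SLC43A2 (LAT4), which carries branched-chain and other large neutral amino acids, had its highest mean on day 6. It had 4.67, 3.18 and 2.1 FPKM on day 0, 12.7 and 18.5 on day 2, 27.3, 26.7 and 56.9 on day 6, and 3.72, 5.02 and 13.8 on day 10. The day 6 libraries were above those of each other day, and the day 10 libraries overlapped those of day 0. Its log2 difference of 1.13 for day 6 against day 2 did not pass (limma adjusted p 0.917). It rose by 3.09 ± 0.55 on the log2 scale on day 6 against day 0 (SE, limma adjusted p 0.0085), a call that held under all 22 alternatives, beside changes of 1.96 on day 2 (adjusted p 0.0649) and 0.84 on day 10 (adjusted p 0.319). Against day 6 it fell by 2.25 ± 0.55 on day 10 (SE, limma adjusted p 0.0331). With the replicate number as a block, for which the numbers of day 6 and day 10 qualify, that change was -2.25 with an adjusted p of 0.0507, and the call ended. It ended too without any 1 day 6 library or without day 10 replicate 1 or 2 (adjusted p 0.079 to 0.174), and under median ratio scaling (-1.85, adjusted p 0.0776) and voom (-1.97, adjusted p 0.0643).

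SLC36A4, a high-affinity carrier of proline and tryptophan, had 2.33, 0.275 and 3.41 FPKM on day 0, 8.91 and 12.1 on day 2, 9.25, 5.94 and 11.7 on day 6, and 8.09, 5.97 and 9.18 on day 10. All cultured libraries were above those of day 0. Its log2 fold change was 2.10 on day 2 (limma adjusted p 0.0506), 1.86 ± 0.55 on day 6 (SE, 0.0464) and 1.70 ± 0.55 on day 10 (SE, 0.0473). Both calls are close to the threshold and ended in most refits that left out a library, with an adjusted p of 0.0562 to 0.168 for day 6 (any one of day 0 replicates 1 and 2 and the day 6 and day 10 libraries) and 0.0514 to 0.135 for day 10 (any but day 0 replicate 3). They ended with voom too (1.36 and 1.60, adjusted p 0.166 and 0.0732). The day 6 call also ended with median ratio scaling (1.18, adjusted p 0.112) and quantile normalization (0.933, adjusted p 0.0877). SLC38A10, whose role is less known, had 13.3, 10.4 and 6.98 FPKM on day 0, 23.7 and 20.2 on day 2, 33.7, 29.2 and 23 on day 6, and 18.6, 40.5 and 67.3 on day 10. It rose on day 10 by 1.81 ± 0.50 (SE, limma adjusted p 0.0253), and the call ended without day 0 replicate 3 or day 10 replicate 2 or 3 (0.0777 to 0.102) and under median ratio scaling (1.11, adjusted p 0.231), quantile normalization (1.37, adjusted p 0.0804) and voom (adjusted p 0.224).

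The system A carriers, which load small neutral amino acids with sodium, varied widely among libraries. SLC38A2 (SNAT2) had 6.11, 0 and 6.28 FPKM on day 0, 2.91 and 25.4 on day 2, 10.5, 21.7 and 36.4 on day 6, and 6.36, 6.12 and 18 on day 10. Only its day 6 libraries did not overlap those of day 0 (log2 fold change 2.52, limma adjusted p 0.0783). SLC38A1 (SNAT1) averaged 4.03 ± 3.43 FPKM on day 0, 7.4 ± 6.52 on day 2, 9.98 ± 2 on day 6 and 5.56 ± 3.37 on day 10 (SD, n = 3, 2, 3 and 3; adjusted p 0.544, 0.161 and 0.586 against day 0). SLC38A6 and the lysosomal arginine sensor SLC38A9 averaged at most 3.01 and 3.08 FPKM at any day and did not pass.

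**Figure D3:**
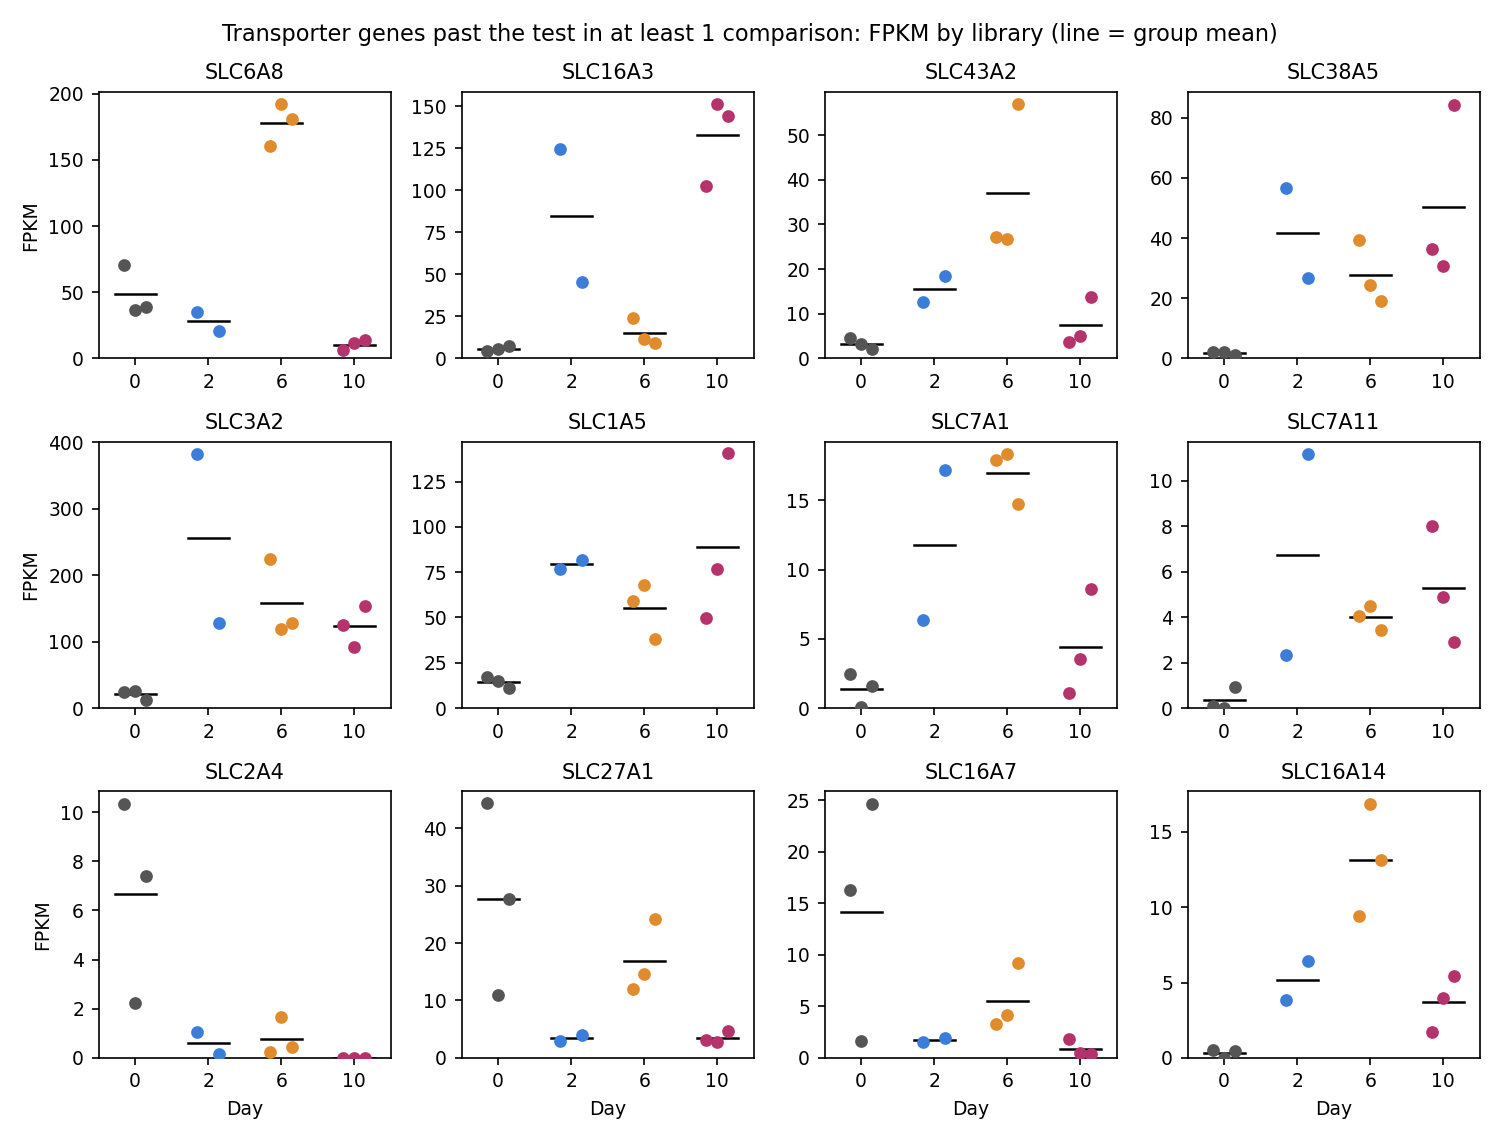
FPKM by library (points) and group mean (lines) of 12 carriers called in at least 1 comparison, against the day in culture, with a linear vertical axis from 0 in each panel. SLC6A8 and SLC43A2 stand highest on day 6, SLC16A3 stands high on day 2 and day 10, SLC38A5, SLC3A2 and SLC1A5 stay above day 0 at every cultured day, and SLC2A4 is at 0 in the 3 day 10 libraries.

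The creatine carrier SLC6A8 moved in both directions. It had 70.4, 36.6 and 39.2 FPKM on day 0, 35.4 and 20.8 on day 2, 160.2, 192 and 181 on day 6, and 5.97, 11.7 and 13.7 on day 10. The 3 day 6 libraries were the highest of the series and the 3 day 10 libraries the lowest, without overlap. It was higher on day 6 than on day 0 by 1.90 ± 0.45 on the log2 scale (SE, limma adjusted p 0.02325). Against day 0 it fell by 2.13 ± 0.45 on day 10 (SE, limma adjusted p 0.00612), and against day 6 by 4.03 ± 0.45 (SE, limma adjusted p 2.54e-04). Its changes of -0.76 on day 2 against day 0 and 2.66 on day 6 against day 2 did not pass (adjusted p 0.369 and 0.419). Both day 10 calls held under all 22 alternatives. The day 6 call ended without day 0 replicate 3 or any 1 day 6 library (adjusted p 0.0556 to 0.103), with median ratio scaling (0.77, adjusted p 0.397) and with voom (0.74, adjusted p 0.485).

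SLC6A8 supplied 63.5% to 99.7% of the summed FPKM of the 7 SLC6 genes in each library. Of the 5 tested, 1 rose by day 2 and 3 by day 6, and on day 10 there was 1 higher and 1 lower. SLC6A7, known as a proline carrier of brain, had 0.151, 0 and 0 FPKM on day 0, 11 and 4.07 on day 2, 3.15, 2.06 and 3.37 on day 6, and 0, 0.627 and 1.29 on day 10. It rested on 4 reads on day 0. Its log2 fold change was 2.90 ± 0.52 on day 2 and 1.86 ± 0.47 on day 6 (SE, limma adjusted p 0.00629 and 0.0282). The vesicular carrier SLC6A17 had 0.345, 0 and 0.106 FPKM on day 0, 0.831 and 2.37 on day 2, 3.3, 3 and 2.18 on day 6, and 1.79, 2.16 and 5.79 on day 10. It rose by 1.73 ± 0.47 on day 6 and 1.78 ± 0.47 on day 10 (SE, limma adjusted p 0.0354 and 0.0198). The taurine carrier SLC6A6 averaged 1.24 ± 1.56 FPKM on day 0, 0.619 ± 0.179 on day 2, 2.34 ± 1.009 on day 6 and 0.338 ± 0.234 on day 10 (SD, n = 3, 2, 3 and 3) and did not pass (adjusted p 0.831, 0.269 and 0.513 against day 0). The serotonin carrier SLC6A4 had a mean of 2.4 ± 2.03 FPKM on day 0 and of at most 1.02 later (smallest adjusted p 0.125 against day 0).

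The SLC6A7 call on day 2 ended without day 2 replicate 1 (adjusted p 0.0518) and the one on day 6 without day 0 replicate 3 or any 1 day 6 library (0.0542 to 0.124) and with median ratio scaling (1.51, adjusted p 0.0801), quantile normalization (1.13, adjusted p 0.139) and voom (adjusted p 0.0532). That of SLC6A17 on day 6 ended without any one of the day 0 or day 6 libraries or day 10 replicate 2 (0.0506 to 0.15), with median ratio scaling (1.39, adjusted p 0.0523) and with quantile normalization (1.05, adjusted p 0.062), and on day 10 without day 0 replicate 3 or day 10 replicate 3 (0.057 and 0.0762).

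Of the 5 tested sugar carriers, SLC2A4 fell at all 3 days and SLC2A8 rose on day 6. SLC2A4 encodes GLUT4, which insulin and contraction bring to the surface of muscle cells. It had 10.3, 2.25 and 7.39 FPKM on day 0, 1.04 and 0.141 on day 2, 0.252, 1.65 and 0.448 on day 6, and 0 in all 3 libraries on day 10. The groups of each cultured day lay below day 0 without overlap. With 0 reads on day 10 against 486 on day 0, a floor of 3 reads over the day 10 group puts the upper limit at 0.0425 FPKM. With the reads of each group pooled and scaled to its total, the level was at least 160.6-fold lower on day 10 than on day 0. On the log2(FPKM + 1) scale, which understates changes of low genes, it fell by 2.15 ± 0.58 on day 2, by 2.00 ± 0.52 on day 6 and by 2.76 ± 0.52 on day 10 (SE, limma adjusted p 0.0365, 0.0308 and 0.00283). The day 10 call held under every alternative in which the gene was tested. The day 2 call ended without any one of 9 libraries (all but day 0 replicate 2 and day 6 replicate 2, adjusted p 0.0508 to 0.23), and the day 6 call without day 0 replicate 1 or 3 or day 6 replicate 1 or 3 (0.0658 to 0.15). The cardiomyocyte marker sum was also below day 0 at each of these days, and its part in the result was not tested.

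SLC2A8 had 2.99, 3.01 and 0.927 FPKM on day 0, 7.27 and 8.94 on day 2, 12, 12.1 and 8.34 on day 6, and 4.38, 4.68 and 5.05 on day 10. All cultured libraries were above those of day 0, and the day 6 change was 1.90 ± 0.48 on the log2 scale (SE, limma adjusted p 0.0278), beside 1.53 on day 2 (adjusted p 0.0913) and 0.86 on day 10 (adjusted p 0.233). The day 6 call ended with median ratio scaling (0.914, adjusted p 0.331), quantile normalization (0.983, adjusted p 0.281) and voom (1.58, adjusted p 0.183) and without day 0 replicate 3, any 1 day 6 library or day 10 replicate 2 (adjusted p 0.051 to 0.135). SLC2A11 averaged 10.4 ± 6.85 FPKM on day 0, 1.68 ± 0.762 on day 2, 3.94 ± 1.69 on day 6 and 2.7 ± 1.27 on day 10 (SD, n = 3, 2, 3 and 3; adjusted p 0.11, 0.244 and 0.13). SLC2A10, whose group means were 0.868, 0.857, 2.29 and 5.12 FPKM on days 0, 2, 6 and 10, and the inositol carrier SLC2A13, at 0.195, 1.45, 1.2 and 1.76 FPKM, had adjusted p values of 0.0631 and 0.052 on day 10. As a share of the summed FPKM of the 8 SLC2 genes found by symbol, SLC2A4 held 34%, 24.4% and 25.5% on day 0, 8.44% and 1.0% on day 2, 1.32%, 6.75% and 2.6% on day 6, and 0% on day 10. SLC2A1 and SLC2A3 are not among these 8, so the shares do not cover all glucose carriers.

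Among 7 tested monocarboxylate carriers, 2 rose by day 2 and 1 by day 6, and on day 10 there were 2 higher and 1 lower. SLC16A3 (MCT4) is the low-affinity carrier through which glycolytic cells release lactate. It had 4.39, 5.37 and 7.08 FPKM on day 0, 124 and 45.6 on day 2, 23.9, 11.8 and 9.34 on day 6, and 103, 151 and 144 on day 10. The libraries of day 2 and day 10 were above all libraries of day 0 and day 6, and those of day 6 were above day 0. It rose by 3.55 ± 0.56 on day 2 and by 4.34 ± 0.50 on day 10 on the log2 scale (SE, limma adjusted p 0.00322 and 9.09e-05), beside 1.19 on day 6 (adjusted p 0.116). On day 10 it was higher than on day 6 by 3.15 ± 0.50 (SE, limma adjusted p 0.00287), and the difference of -2.36 for day 6 against day 2 did not pass (adjusted p 0.748). The day 2 call ended with the 2 compared groups alone in the fit (adjusted p 0.0702), and both day 10 calls held under all 22 alternatives. The smooth muscle and pericyte marker sum was 164 to 463 FPKM on day 2 and 2289 to 3147 on day 10 (mostly TAGLN) against 295 to 459 on day 0. The fibroblast sum was 404 to 415 on day 2 and 1737 to 8267 on day 10 against 366 to 1966 on day 0. It overlapped day 0 on both days. Their part in the result was not tested.

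SLC16A7 (MCT2), a high-affinity carrier suited to lactate and pyruvate uptake, had 16.3, 1.6 and 24.6 FPKM on day 0, 1.57 and 1.94 on day 2, 3.25, 4.2 and 9.16 on day 6, and 1.84, 0.476 and 0.33 on day 10. Day 0 replicate 2 fell within the range of the cultured libraries. It fell by 2.56 ± 0.76 on day 10 (SE, limma adjusted p 0.0337), and changes of -1.93 on day 2 and -0.79 on day 6 did not pass (adjusted p 0.17 and 0.443). The call ended without day 0 replicate 1 or 3 or day 10 replicate 2 or 3 (adjusted p 0.0991 to 0.114). The shares that follow are of the 11 SLC16 genes found by symbol, which do not include SLC16A1 (MCT1). SLC16A3 made up 13.6%, 27.8% and 17.8% of their summed FPKM on day 0, 82.3% and 58.4% on day 2, 40.8%, 18.3% and 19.9% on day 6, and 89.1%, 82.4% and 83.8% on day 10. SLC16A7 made up 50.2%, 8.28% and 61.9% on day 0 and 1.6%, 0.26% and 0.192% on day 10.

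SLC16A14, a family member without a settled substrate, had 0.549, 0 and 0.466 FPKM on day 0, 3.82 and 6.45 on day 2, 9.39, 16.8 and 13.1 on day 6, and 1.7, 4 and 5.46 on day 10. All cultured libraries lay above day 0. It rose by 2.19 ± 0.57 on day 2, 3.39 ± 0.51 on day 6 and 1.75 ± 0.51 on day 10 (SE, limma adjusted p 0.0308, 0.00337 and 0.03). The day 6 call held under all 22 alternatives. The others ended without any one of day 0 replicates 1 and 3, the day 2 libraries, day 6 replicates 1 and 3 and day 10 replicate 2 for day 2 (adjusted p 0.0525 to 0.186), and without day 0 replicate 1 or 3 or day 10 replicate 2 or 3 for day 10 (0.0556 to 0.112). SLC16A13 averaged 2.94 ± 1.68 FPKM on day 0, 13.8 ± 0.285 on day 2, 11.8 ± 5.12 on day 6 and 9.36 ± 5.22 on day 10 (SD, n = 3, 2, 3 and 3; adjusted p 0.0685, 0.0669 and 0.124). SLC16A5, SLC16A8 and the aromatic amino acid carrier SLC16A10 did not pass at any day.

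**Figure D4:**
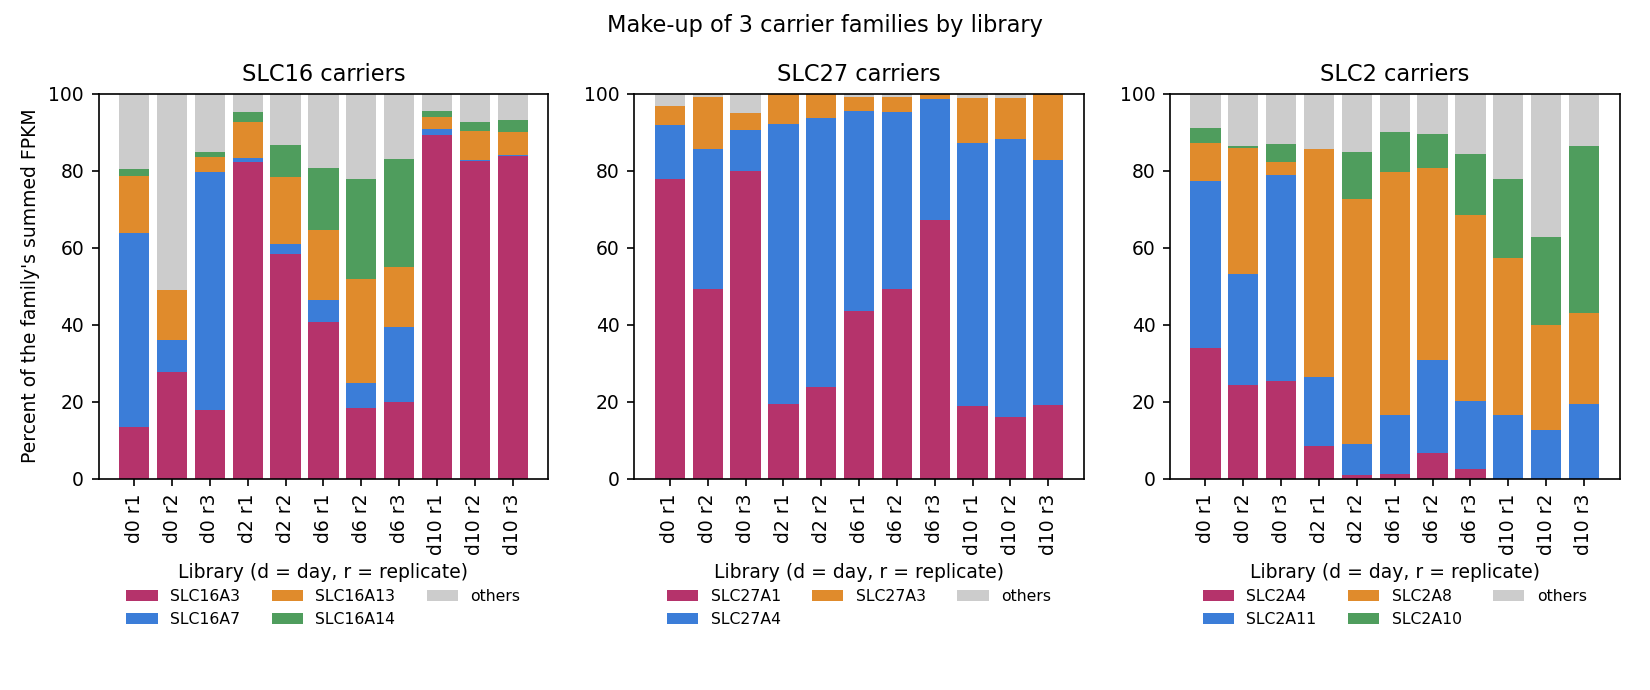
Percent of the summed FPKM of the SLC16, SLC27 and SLC2 genes found by symbol (vertical axis) that came from each named gene, 1 bar per library, with the remaining such genes in grey. SLC16A1, SLC2A1 and SLC2A3 are not in these sums. SLC16A3 makes up 82.4% to 89.1% of the SLC16 sum in the 3 day 10 libraries, SLC27A4 exceeds SLC27A1 in the day 2 and day 10 libraries and in day 6 replicate 1, and SLC2A4 is missing from the SLC2 sum on day 10.

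Of the 3 tested fatty acid transport proteins, SLC27A1 fell on day 2 and day 10. SLC27A1 (FATP1) is an acyl-CoA synthetase of muscle and fat that promotes fatty acid uptake. It had 44.4, 10.9 and 27.7 FPKM on day 0, 2.92 and 4.04 on day 2, 12.1, 14.6 and 24.2 on day 6, and 3.06, 2.68 and 4.76 on day 10. The day 2 and day 10 libraries were below those of day 0 and day 6, and the day 6 libraries overlapped day 0. It fell by 2.49 ± 0.62 on day 2 and by 2.50 ± 0.55 on day 10 (SE, limma adjusted p 0.0262 and 0.0078), beside -0.53 on day 6 (adjusted p 0.476). For day 10 against day 6 its change of -1.97 had an adjusted p of 0.061, and under median ratio scaling this difference (-1.57, adjusted p 0.0446) and the one for day 6 against day 0 (-1.62, adjusted p 0.0319) passed as lower. The day 10 call against day 0 held under all 22 alternatives, and the day 2 call ended without day 0 replicate 1 or 3 or either day 2 library (0.0677 to 0.121). The cardiomyocyte markers summed to 2420 to 15900 FPKM on day 2 and 22.2 to 143.9 on day 10 against 72830 to 159100 on day 0. The upper day 0 value came from replicate 2, with its high TNNC1 and MYL3. The part of these markers in the result was not tested.

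SLC27A4 (FATP4), a relative with broader expression, averaged 6.53 ± 2.51 FPKM on day 0, 11.4 ± 0.766 on day 2, 13.1 ± 1.64 on day 6 and 12.9 ± 2.46 on day 10 (SD, n = 3, 2, 3 and 3). Each cultured group lay above day 0 without overlap, but none passed (limma adjusted p 0.347, 0.142 and 0.169). Its share of the summed FPKM of the 4 SLC27 genes was 13.9%, 36.4% and 10.5% on day 0, 72.5% and 70% on day 2, 52.1%, 46% and 31.4% on day 6, and 68%, 72.1% and 63.4% on day 10, where SLC27A1 held 77.9%, 49.2% and 80%, then 19.5% and 23.7%, then 43.4%, 49.3% and 67.2%, and on day 10 19%, 16.1% and 19.3%. SLC27A3 averaged 2.49 ± 0.819, 1.12 ± 0.106, 0.855 ± 0.378 and 2.64 ± 1.37 FPKM on days 0, 2, 6 and 10 (SD, n = 3, 2, 3 and 3; smallest adjusted p 0.156 against day 0).

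The order of the carriers by mean FPKM changed over the days. On day 0 SLC6A8 led with 48.7 ± 18.8 FPKM, followed by SLC27A1 with 27.7 ± 16.7 and SLC3A2 with 20.8 ± 7.82 (SD, n = 3), and each of the first 10 overlapped its neighbour. SLC3A2 led on day 2 with 255 ± 179 FPKM and did not overlap SLC16A3, next with 84.9 ± 55.6, which overlapped SLC1A5 with 79.3 ± 3.68 (SD, n = 2). The day 6 order was SLC6A8 with 178 ± 16.1 and SLC3A2 with 157 ± 58.1, which overlapped, then SLC1A5 with 55 ± 15.4 (SD, n = 3), below both. On day 10, SLC16A3 with 133 ± 26.2, SLC3A2 with 123 ± 31.1 and SLC1A5 with 89 ± 46.7 FPKM (SD, n = 3) overlapped, and SLC6A8 was the seventh with 10.4 ± 4.01. The 54 carriers together summed to 295, 152 and 222 FPKM on day 0, 817 and 523 on day 2, 730, 673 and 662 on day 6, and 428, 526 and 777 on day 10.

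Genes that act with the carriers were read from lists of the neighbouring pathways. In the amino acid shortage response, which includes serine and asparagine synthesis, 7 of 11 tested genes rose by day 2, 7 by day 6 and 8 by day 10, with median log2 fold changes of 2.61, 2.57 and 2.59. Beside them, 5.76%, 9.55% and 11.9% of all genes tested were called higher and their medians were 0.51, 0.88 and 0.51. Asparagine synthetase ASNS averaged 56.9 ± 5.34 FPKM on day 2, 50.6 ± 13.2 on day 6 and 80.6 ± 32 on day 10 against 4.83 ± 0.852 on day 0 (SD, n = 2, 3, 3 and 3; limma adjusted p 0.00258, 0.00281 and 1.16e-04). The serine synthesis gene PHGDH averaged 117.5 ± 31 FPKM on day 10 against 13.1 ± 5.66 on day 6 (SD, n = 3 each; log2 fold change 3.14, limma adjusted p 0.00312). Of 8 genes listed for glutathione made from imported cystine and for redox defence, 3 rose by day 2, 4 by day 6 and 5 by day 10. SRXN1 and TXNRD1, which were among them on all 3 days, are known for the peroxiredoxin and thioredoxin system and not for making glutathione. GCLC, the catalytic subunit of the first step of glutathione synthesis, averaged 25.4 ± 16.4, 31.1 ± 15.9 and 37.3 ± 9.04 FPKM on days 2, 6 and 10 against 1.88 ± 1.3 on day 0 (SD, n = 2, 3, 3 and 3; limma adjusted p 0.00999, 0.00552 and 5.8e-04). In the list of amino acid sensing by mTORC1, 1 of 14 genes passed against day 0, namely RRAGD, a Rag GTPase, which was lower on day 10 (0.661 ± 0.356 against 30.9 ± 20.7 FPKM on day 0, SD, n = 3 each; limma adjusted p 0.00129). That count is near the 6.23% of all genes called lower on day 10. Leaving out 1 library moved the number of higher genes of the shortage response to 3 to 7 on day 2, 1 to 8 on day 6 and 5 to 9 on day 10, and that of the glutathione list to 1 to 3, 2 to 4 and 3 to 5. With limma voom the shortage response had 4, 3 and 6 higher genes, and the GCLC call on day 2 ended without day 2 replicate 2 (adjusted p 0.106).

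The counts of the lists that follow stand beside 5.76%, 9.55% and 11.9% of all genes called higher and 3.14%, 1.76% and 6.23% called lower on day 2, day 6 and day 10. For lactate handling, 1 of 8 tested genes was higher and 1 lower on day 2, 2 and 1 on day 6, and 1 and 2 on day 10. LDHA, the muscle-type lactate dehydrogenase subunit, averaged 408 ± 34 FPKM on day 2, 184 ± 52.3 on day 6 and 1658 ± 511 on day 10 against 56.5 ± 34.1 on day 0 (SD, n = 2, 3, 3 and 3; limma adjusted p 0.00999, 0.0453 and 6.16e-05). For day 10 against day 6 its log2 fold change was 3.16 (limma adjusted p 0.00554), beside 3.15 for SLC16A3. PDK2, which inhibits pyruvate dehydrogenase, fell to 9.51 ± 6.1 FPKM on day 10 against 156 ± 32.1 on day 0 (SD, n = 3 each; limma adjusted p 1.86e-04). Its relative PDK4 was called higher on day 6, with 39, 31.9 and 113 FPKM against 2.14, 0.0891 and 18.2 on day 0. On day 10 PDK4 had 8.67, 1.13 and 3.7 FPKM and was not called. The PDK4 call ended without any one of 7 libraries (limma adjusted p 0.0571 to 0.144), with median ratio scaling and with voom. In the hypoxia response, 4 of 12 genes rose by day 2, 5 by day 6 and 6 by day 10, LDHA among them. Of 13 genes for glucose trapping and GLUT4 traffic, HK2 and ARRDC4 rose on day 6 and SORT1, a sorting receptor of GLUT4 vesicles, rose on day 10. In the list for fatty acid uptake and activation, ACSL4, an acyl-CoA synthetase, rose on day 6 and on day 10. The LDHA calls on day 10 held under all 22 alternatives, while the one on day 2 ended without either day 2 library (adjusted p 0.0577 and 0.0715) and the one on day 6 with median ratio scaling (log2 fold change 0.77, adjusted p 0.397) and without any one of 9 libraries (all but day 0 replicates 1 and 3, adjusted p 0.051 to 0.179). Without 1 library the hypoxia list had 0 to 4 higher genes on day 2, 0 to 6 on day 6 and 4 to 6 on day 10, with voom 1, 0 and 5. The day 6 calls of HK2, ARRDC4 and ACSL4 ended with voom. Among single libraries, they ended without day 6 replicate 1 for HK2 (adjusted p 0.0865), without any 1 day 6 library or day 10 replicate 2 for ARRDC4 (0.0541 to 0.119) and without any one of 8 libraries for ACSL4 (day 0 replicates 1 and 2 and those of day 6 and day 10, 0.0509 to 0.172). On day 10 the SORT1 call ended without day 10 replicate 3 (0.0674) and that of ACSL4 without day 10 replicate 2 or 3 (0.0509 and 0.0516).

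In the creatine and taurine list of 5 genes, 1 was higher and 1 lower on day 2, 1 was higher on day 6, and 1 was higher and 1 lower on day 10. CKMT2, the mitochondrial creatine kinase of striated muscle, averaged 87.1 ± 56.7 FPKM on day 2, 339 ± 120 on day 6 and 0.177 ± 0.269 on day 10 against 938 ± 209.5 on day 0 (SD, n = 2, 3, 3 and 3), with log2 fold changes of -3.56 on day 2 and -9.64 on day 10 (limma adjusted p 0.0024 and 2.21e-07). CKB, the cytosolic brain-type enzyme, averaged 153 ± 117, 91.3 ± 34.1 and 144 ± 26.7 FPKM on days 2, 6 and 10 against 20.9 ± 6.34 on day 0 (SD, n = 2, 3, 3 and 3; limma adjusted p 0.0154, 0.0271 and 0.00266). The 3 CKB calls ended with median ratio scaling (1.83, 0.924 and 2.04, adjusted p 0.209, 0.464 and 0.0871), the day 2 call also without day 2 replicate 1 (0.142) and the day 6 call without day 0 replicate 3 or any 1 day 6 library (0.0537 to 0.119), and the calls of CKMT2 on day 10 held under all 22 alternatives. For SLC6A8 on day 10 the cardiomyocyte marker sum was below that of day 0 and day 6, and the part of this in the result was not tested.

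The other 17 carriers stayed below the filter: SLC1A1, SLC1A6, SLC2A6, SLC2A7, SLC2A12, SLC6A3, SLC6A14, SLC7A2, SLC7A10, SLC16A6, SLC16A9, SLC16A11, SLC16A12, SLC27A6, SLC36A2, SLC38A3 and SLC38A11. Their means over all libraries reached at most 0.9995 FPKM, and the highest value of one of them in a single library was 3.84 FPKM. As the filter uses all days together, a carrier present mainly at 1 day can fall below it. SLC38A3 had 269 reads on day 0 and 9, 42 and 7 on days 2, 6 and 10, and SLC27A6 had 149 and 1, 23 and 15. SLC16A6 went the other way, with 5 and 50, 198 and 99. With no filter, 7, 11 and 9 carriers were higher and 3, 2 and 5 lower than day 0 on days 2, 6 and 10. SLC2A7 had 0 reads in every library. SLC2A1, SLC2A3, SLC7A5, SLC16A1 and 5 more carriers of the panel to be named were not analysed here.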

How the data were processed

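RNA of pig heart slices was isolated with Trizol and made into TruSeq libraries from 1 ug of total RNA, per the labels' protocols. The authors deposited 1 FPKM value per gene and library. Bowtie 0.12.2 and the mouse build mm8 are named in the submitters' processing notes, whereas the identifiers in the table are pig Ensembl ones. Not given in the sources used here are the counter, the annotation and the handling of reads that match several genes, so related carriers may share reads. Symbols were found for 9686 of 16319 identifiers, and 0 columns were left unused.

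Whole reads, library totals and gene lengths were recovered from the steps of the FPKM values, within 0.01 reads, for all 16073 genes above 0. Floors use 3 reads over a group and cover counting error only. Genes with a mean of at least 1 FPKM (12625) were taken as log2(FPKM + 1), and 1 linear model with 4 groups was fitted with limma 3.58.1 in R 4.3.3 (lmFit, eBayes with trend, 7 residual and 5.89 prior degrees of freedom). Tests were two-sided, with Benjamini-Hochberg adjustment over all genes in each of 5 comparisons and a threshold of 0.05. The recovered reads were used in limma voom with median ratio size factors, an alternative chosen after seeing the data. The scripts were tested on simulated data.

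The labels do not say what a replicate number marks. Of same-numbered libraries, the 3 pairs of day 6 and day 10 deviated from their group means together (correlations 0.18 to 0.275), and the block was used beside the main value for that comparison.

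The carriers and lists were chosen with earlier results of these data known. Named are a panel of 34 carriers, of which 25 are in the table and 20 were tested, every other carrier past the threshold, carriers below the filter as a list, and at most 4 genes per neighbouring list and comparison with the smallest p. The choice to name SLC1A2, SLC2A10, SLC2A11, SLC2A13, SLC6A4, SLC7A7, SLC16A5, SLC16A8, SLC16A10, SLC16A13, SLC27A3, SLC38A6 and SLC38A9 was made after their values were seen. Some genes picked by the rule were left out of the text.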

Additional observations from a re-analysis of the deposited data

Results flagged for a closer look

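For 3 carriers the effects of culture at day 10 and at day 6, both against day 0, differed by a direct test of day 10 against day 6. The log2 difference was -4.03 for SLC6A8, -2.25 for SLC43A2 and 3.15 for SLC16A3 (limma adjusted p 2.54e-04, 0.0331 and 0.00287). In each of them the 3 day 10 libraries did not overlap the 3 day 6 libraries. That for SLC43A2 ended with the replicate block (adjusted p 0.0507). The test for a sample far from the others of its group needs at least 4 samples and was not applied to these groups of 2 or 3 libraries.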

How the results depend on the processing

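Of 40 calls on carriers, 10 held under every alternative in which the carrier was tested, 30 ended under at least 1, and 0 changed direction. A pseudocount of 0.1 or of 5 ended 7 calls each, no filter 4, median ratio scaling 16, quantile normalization 8, array weights 2, the 2 compared groups alone 18 and limma voom 16. The numbers that moved by over 1.5 times are given as all genes, carriers higher or carriers lower. A pseudocount of 0.1 gave 1 lower carrier at day 2, 942 genes and 0 lower carriers at day 6, and 1 lower carrier for day 10 against day 6. No filter gave 2 lower at day 6, and a mean of at least 5 FPKM gave 1 lower at day 2 and 0 at day 6. Median ratio scaling gave 4 lower at day 2 and 864 genes, 4 higher and 3 lower at day 6. Quantile normalization gave 1725 genes and 4 lower at day 2, 6 higher and 5 lower at day 6, 7 lower at day 10, and 1130 genes, 2 higher and 4 lower for day 10 against day 6. Array weights gave 4 lower at day 2, 6632 genes, 20 higher and 7 lower at day 6, 5469 genes, 16 higher and 9 lower at day 10, and 5958 genes and 11 lower for day 10 against day 6. With the 2 compared groups alone in the fit there were 45 genes, 0 higher and 0 lower at day 2, 621 genes and 0 lower at day 6, 1369 genes at day 10, and 2037 genes and 8 lower for day 10 against day 6. Limma voom, chosen after seeing the data, gave 5 higher and 4 lower at day 2, 680 genes, 5 higher and 3 lower at day 6 and 7 lower at day 10. Without day 0 replicate 2 and day 2 replicate 1 together there were 4 lower at day 2, 1980 genes and 3 lower at day 6, 3413 genes and 7 lower at day 10, 4 genes for day 6 against day 2, and 2524 genes and 9 lower for day 10 against day 6. The cause of these shifts was not tested.

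With the replicate number as a block, 30 of the 40 calls held, with 0 lower carriers at day 2 and 1 lower for day 10 against day 6. In the other comparisons not every same-numbered pair had a correlation of deviations over 0.1. It was 0 of 2 pairs for day 2 against day 0 and 1 of 2 for day 6 against day 2. For day 6 against day 0 it was 2 of 3 (-0.105 to 0.469), and for day 10 against day 0 also 2 of 3 (-0.376 to 0.212). For day 10 against day 6 the block ended no other carrier call than that of SLC43A2.

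Leaving out 1 library moved the genes called to 360 to 1763 at day 2, 119 to 1515 at day 6, 1460 to 2700 at day 10, 0 to 2 for day 6 against day 2 and 273 to 1544 for day 10 against day 6. Higher carriers numbered 3 to 9, 3 to 13 and 5 to 11 at day 2, day 6 and day 10, 0 to 0 for day 6 against day 2 and 1 to 1 for day 10 against day 6, and lower ones 0 to 6, 0 to 2, 3 to 6, 0 to 0 and 1 to 7. The gene count moved by over 1.5 times without day 2 replicate 1 (360), day 2 replicate 2 (399), day 0 replicate 3 (719) or day 0 replicate 2 (1763) for day 2. For day 6 it did so without day 6 replicate 1 (119), 2 (578) or 3 (352), day 10 replicate 2 (804) or day 0 replicate 3 (830), and for day 10 without day 10 replicate 2 (1460). For day 10 against day 6 it did so without day 0 replicate 2 (1544), day 10 replicate 2 (273) or 1 (362), or day 6 replicate 1 (292), 2 (309) or 3 (281). When a day 2 library is left out, the other is assumed to vary like the remaining groups. The planned count tests by other tools were not run, since the deposited values are FPKM. Carriers under about 10 reads in a group are limited by depth.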
